A study of Mus musculus with 4 samples.

Results

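The 9 chemokine receptor genes Cxcr3, Cxcr4, Cxcr6, Ccr1, Ccr2, Ccr3, Ccr4, Ccr8 and Ccr9 were compared between mouse T cells labelled as a knockout of Tbx21, the gene of the transcription factor T-bet, and their wild-type counterparts. They were picked by gene symbol, as receptors of type 1, type 2 and myeloid cells, out of 24768 genes in the deposited table, and all 9 had a row. The tested cells are cDNT cells labelled Tbx21-KO (2 libraries), and they are set against WT cDNT cells (2 libraries). By the title of the series the cells are double-negative T cells, which lack the CD4 and CD8 coreceptors, and the question is what T-bet does for their regulatory function. The "c" in cDNT is not spelled out in the labels, and neither are the strain, the age, the culture or the construction of the Tbx21-KO. The samples are labelled knockout, whereas the design text writes knockdown. Whether the 2 libraries of a group stem from different mice or cultures is not labelled, and the p-values therefore reflect library-to-library spread that may be technical.

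Chemokine receptors are membrane receptors coupled to inhibitory G proteins. They sense gradients of small secreted proteins, the chemokines, and steer leukocytes into tissues. The set a T cell carries follows its effector programme: CXCR3 is known from type 1 and cytotoxic T cells, CCR4 and CCR8 from type 2 and regulatory T cells, CXCR6 from activated and tissue-resident T cells, and CCR9 from cells bound for the gut. CXCR4, the receptor for CXCL12, is carried by most leukocytes, whereas CCR1, CCR2 and CCR3 are best known from neutrophils and monocytes, from inflammatory monocytes and from eosinophils. T-bet, the product of Tbx21, is the transcription factor of the type 1 programme.

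Levels are FPKM, fragments scaled by gene length and library size, as the authors computed them. Levels of different genes can be set side by side only as far as the exon length used for each gene holds. The values imply library totals of 23342603 and 24032883 reads in Tbx21-KO and 24967028 and 24129889 reads in WT. Tbx21 itself was at 2.29 and 2.41 FPKM in Tbx21-KO and at 13.2 and 11.7 FPKM in WT. All 17 measured genes of the T cell receptor complex list were at 1 FPKM or more in every library, while Cd4 was at 2.01 and 2.02 FPKM in Tbx21-KO and at 1.74 and 1.84 FPKM in WT. Cd8b1 was at 2.95 and 2.89 FPKM in Tbx21-KO and at 1.95 and 2.93 FPKM in WT. Neither Cd4 nor Cd8b1 was called (limma adjusted p = 0.292 and 0.310). Cd8a was not among the genes analysed here, so CD8 was checked by Cd8b1 alone. Genes of other blood cells separated the groups: 19 granulocyte and mast cell markers summed to 10961 and 11261 FPKM in Tbx21-KO and to 16.2 and 20.4 FPKM in WT. The sums were 673 and 672 against 26.5 and 28.7 FPKM for 13 eosinophil, basophil and mast cell markers, a list that shares Prg2, Epx, Mcpt8 and Cpa3 with the granulocyte one, and 455 and 485 against 180 and 181 FPKM for 12 macrophage and monocyte markers. Ly6c2, picked with its value known, made up most of the WT sum of that list, and without it the other 11 summed to 272 and 293 FPKM in Tbx21-KO and to 15.9 and 19.5 FPKM in WT. Of these 11, Lyz2 alone was at 198 and 216 FPKM in Tbx21-KO, and Ms4a7 and Mrc1 were at 0.131 FPKM or less in every library. All 8 tested members of the list, Ly6c2 among them, were called higher. The sums were 191 and 199 in Tbx21-KO against 113 and 118 FPKM in WT for 12 dendritic cell markers and 92.5 and 89.3 against 40.7 and 42.4 FPKM for 8 B cell markers. By contrast the T cell receptor complex list summed to 1518 and 1550 FPKM in Tbx21-KO and to 2127 and 2233 FPKM in WT. Its 17 members did not move together: 12 were called lower, 1 was called higher and 4 were not called. They ranged from 35.3% of WT for Cd28 and 42.1% for Lck to 94.2% for Zap70, 106% for Lat and 155% for Cd5. Thy1 held the largest part of the sum, with means of 512 FPKM in Tbx21-KO and 623 FPKM in WT. In bulk RNA, fewer cells of a type and less RNA per cell cannot be told apart.

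**Figure D1:**
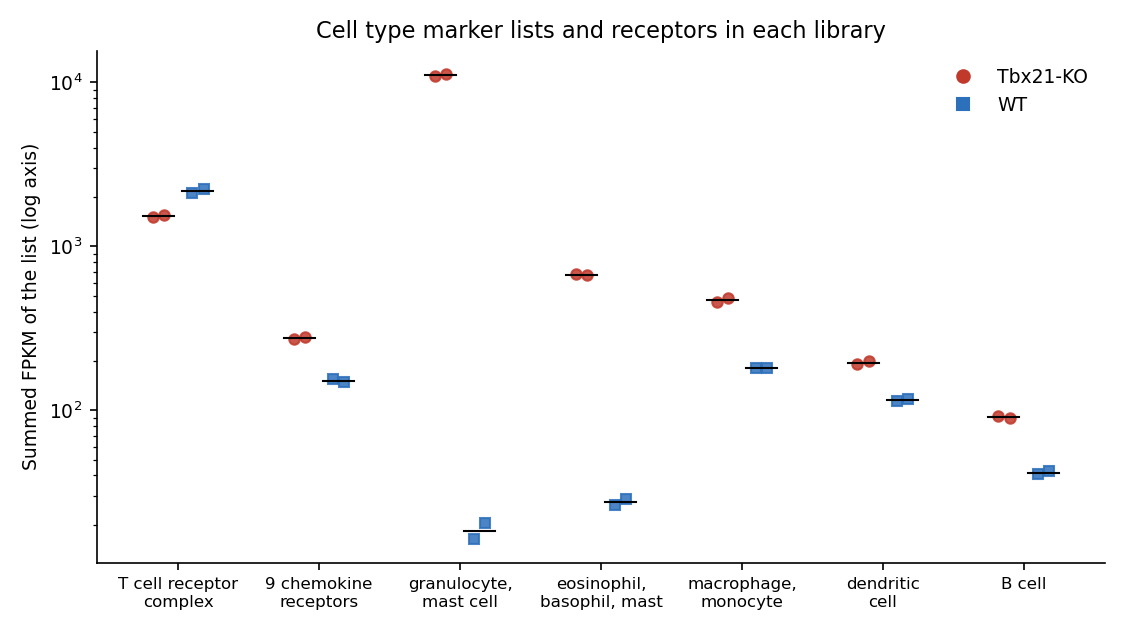
Summed FPKM (log axis) of the T cell receptor complex list, of the 9 chemokine receptors and of 5 lists of markers of other cells, with 1 point per library (circles Tbx21-KO, squares WT) and a line at the mean of 2 libraries. The granulocyte and mast cell list stands at 10961 and 11261 FPKM in Tbx21-KO and at 16.2 and 20.4 FPKM in WT, and the 9 receptors at 273.5 and 279.9 against 154.8 and 147.7 FPKM.

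Cxcr3 fell in Tbx21-KO, and Ccr1, Ccr4, Cxcr4, Ccr2, Ccr8 and Cxcr6 rose. Differences were tested with limma on log2(FPKM + 1) over 11013 genes with a mean of at least 1 FPKM, and a gene is called at a Benjamini-Hochberg adjusted p under 0.05 over all of them. Of the 9 receptors 7 were tested, and 6 were called higher and 1 lower, while across all genes 53.1% were called, 30.1% higher and 23% lower. Ccr8 was under 1 FPKM in WT and so entered the test only through the Tbx21-KO libraries. Among genes with a mean of at least 1 FPKM in WT, 5 receptors were higher and 1 was lower of 6 tested, against 50.3% of 10254 genes called, 25.9% higher and 24.4% lower. Ccr3 and Ccr9 stayed under the filter and have values but no test. Of all 11013 genes, the same test called 3315 higher and 2531 lower, and the higher genes made up 56.7% of all calls. That share was 39.1% after quantile normalization, 43.0% with median-of-ratios scaling and 93.4% after scaling each library to its T cell receptor complex list. Under this last scaling 75.2% of all genes were called, 70.2% higher and 4.97% lower, and the 7 receptors had the same calls. Of the 17 genes of that list, 7 were called higher and 7 lower under it. The T cell receptor complex list scaling moved the median change of all genes by 0.39 on the log2 scale and quantile normalization moved it by -0.14. The direction of each of the 7 tested receptors was the same under all of these scalings.

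**Figure D2:**
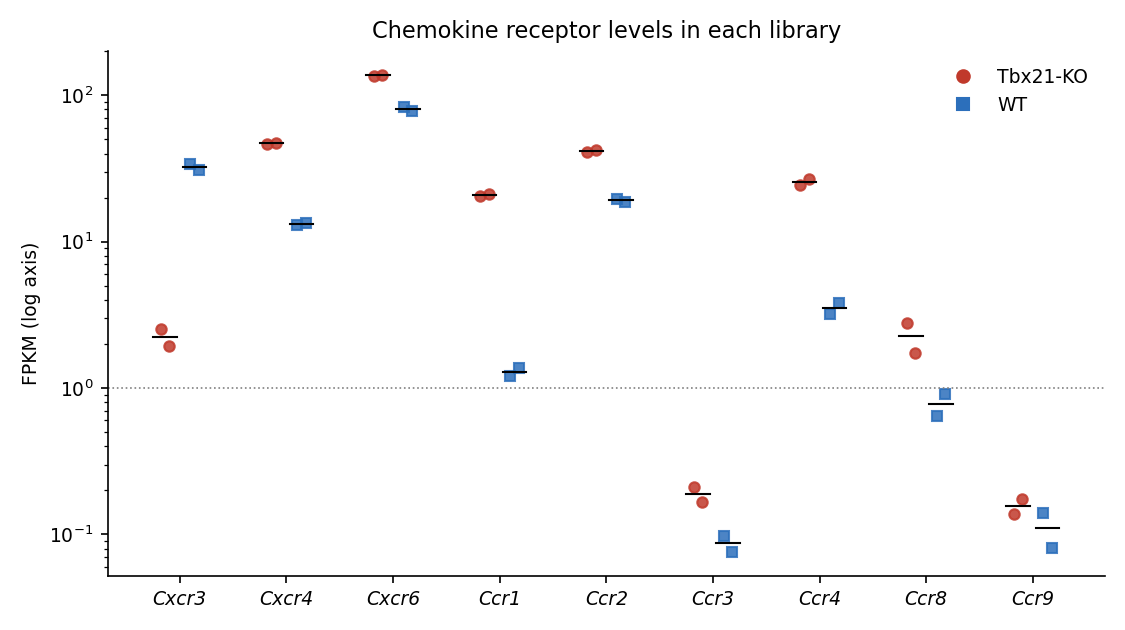
FPKM (log axis) of the 9 chemokine receptors with 1 point per library, circles for Tbx21-KO and squares for WT, and a black line at the mean of 2 libraries; the dotted line marks 1 FPKM. Cxcr3 lies at 2.52 and 1.95 FPKM in Tbx21-KO and 33.9 and 31.1 FPKM in WT, whereas the 6 receptors called higher lie above their WT points in both Tbx21-KO libraries. Of all tested genes 53.1% were called, and the share of all genes with groups apart was not computed.

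Cxcr3 (ENSMUSG00000050232, GRCm38 chromosome X, 101731535 to 101734269, minus strand) encodes the receptor for CXCL9, CXCL10 and CXCL11, chemokines induced by interferon gamma. It was at 2.52 and 1.95 FPKM in Tbx21-KO 1 and 2 and at 33.9 and 31.1 FPKM in WT 1 and 2. Both Tbx21-KO libraries were far under both WT libraries. These levels correspond to an estimated 102 and 81 reads in Tbx21-KO and 1467 and 1300 reads in WT. The mean fell to 6.87% of WT, a log2 fold change of -3.38 (SE 0.10, 95% interval -3.65 to -3.11, limma adjusted p = 4.39e-05). On the log2(FPKM + 1) scale this was rank 1 among the falls of all 11013 genes, where Tbx21 itself, with -2.01, ranked 20. Rescaled to the T cell receptor complex list, the log2 fold change of Cxcr3 was -3.06. In rank of level, Cxcr3 exceeded 63.2% and 60.8% of the genes of the table in Tbx21-KO and 93.6% and 92.9% in WT.

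The promoters of the receptor that fell and of the 2 that rose most are shown because T-bet binds DNA at a T-box element. They are the 250 bases before the RefSeq start (GRCm38.p6), read 5′ to 3′ on the gene's strand, at chrX:101734148-101734397 for Cxcr3, chr9:123968693-123968942 for Ccr1 and chr9:114496545-114496794 for Ccr4, all on the minus strand. Capitals mark matches, on either strand, to the 6 motifs named after the sequences.
Cxcr3: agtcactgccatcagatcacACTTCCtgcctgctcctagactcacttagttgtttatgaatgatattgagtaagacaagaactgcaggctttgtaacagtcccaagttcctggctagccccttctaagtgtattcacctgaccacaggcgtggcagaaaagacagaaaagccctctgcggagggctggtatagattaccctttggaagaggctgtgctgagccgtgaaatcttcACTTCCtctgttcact
Ccr1: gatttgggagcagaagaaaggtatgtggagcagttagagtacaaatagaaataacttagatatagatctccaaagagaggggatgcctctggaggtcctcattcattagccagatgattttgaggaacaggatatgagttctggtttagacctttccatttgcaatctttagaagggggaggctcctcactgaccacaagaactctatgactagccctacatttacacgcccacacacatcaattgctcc
Ccr4: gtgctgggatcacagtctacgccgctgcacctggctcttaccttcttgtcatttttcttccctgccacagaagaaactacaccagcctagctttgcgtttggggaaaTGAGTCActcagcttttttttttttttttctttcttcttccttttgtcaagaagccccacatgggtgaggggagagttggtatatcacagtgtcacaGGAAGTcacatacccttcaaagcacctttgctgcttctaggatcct
The motifs were the T-box half-site AGGTGTGA and its core GGTGTG, which lies inside it, a GATA motif AGATAA, an ETS core GGAAGT, an AP-1 motif TGAGTCA and a C/EBP motif TTGCGCAA. Neither the T-box half-site nor its core has a match in the Cxcr3, Ccr1 or Ccr4 window. Cxcr3 holds 2 ETS core matches, both on the opposite strand, 16 to 11 and 230 to 225 bases before the start. Ccr4 holds an AP-1 match 143 to 137 bases and an ETS core match 46 to 41 bases before the start, and Ccr1 holds no match to the 6 motifs. All 9 receptors have a window in the table. The T-box core was found in 1 of them (Ccr9), and in 16.3% of all 32851 windows. The half-site was found in none of the 9 and in 1.12% of all windows. GATA matches stood in 3 receptors (Ccr2, Ccr3 and Ccr8) and 9.99% of windows, ETS cores in 3 (Ccr3, Ccr4 and Cxcr3) and 19.7%, AP-1 in 2 (Ccr3 and Ccr4) and 4.46%, and C/EBP in none and 0.164%. A match is a run of letters and not a measured binding site. RefSeq and GENCODE also place some starts differently: the RefSeq start lies 122 bases inside the GENCODE gene for Cxcr3, 233 bases for Ccr2, 8.37 kb for Ccr4 and 88.8 kb for Ccr9, and within 19 bases of its outer end for the other 5 receptors.

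Ccr1 and Ccr2 encode receptors that myeloid cells use, and both rose. Ccr1 (GRCm38 chromosome 9, 123962124 to 123968692, minus strand) binds CCL3 and CCL5 and, in mice, CCL6 and CCL9. Its level was 20.6 and 21.1 FPKM in Tbx21-KO and 1.20 and 1.38 FPKM in WT. The libraries of a group lay close together and far from those of the other group. The rise was 16.2-fold, with a log2 fold change of 3.26 (SE 0.06, 95% interval 3.09 to 3.42, adjusted p = 1.43e-05), and it stood at rank 97 among the rises of all genes. Ccr2 (chromosome 9, 124101950 to 124113557, plus strand), the receptor for CCL2, CCL7 and CCL12 that lets monocytes leave the bone marrow, was at 40.9 and 42.3 FPKM in Tbx21-KO and at 19.7 and 18.7 FPKM in WT. That is a 2.17-fold rise, with a log2 fold change of 1.08 (SE 0.05, 95% interval 0.96 to 1.20, adjusted p = 0.000111). Unlike Ccr1, Ccr2 was well expressed in both WT libraries. There the 19 granulocyte and mast cell markers summed to 16.2 and 20.4 FPKM. The 12 macrophage and monocyte markers summed to 180 and 181 FPKM in WT, and to 15.9 and 19.5 FPKM without Ly6c2. In Tbx21-KO, where both receptors rose, all 19 of those markers and the 8 tested macrophage and monocyte markers were called higher, against 30.1% of all genes, but only 7 of the 19 and 4 of the 8 had a mean of at least 1 FPKM in WT and the others entered the test through Tbx21-KO alone. Both lists held very abundant members in Tbx21-KO, S100a9 with 3962 ± 149 FPKM in Tbx21-KO and 2.34 ± 0.05 FPKM in WT, and Lyz2 with 207.0 ± 13 and 3.26 ± 0.82 FPKM (SD, n = 2 each). None of these 19 and 12 listed markers was at 0 in both libraries of a group. The part of myeloid transcripts in the rises of Ccr1 and Ccr2 was not tested.

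Reads of sequence that genes share cannot be assigned to either of them. Of the 50-base words in the annotated Ccr2 transcripts (GENCODE M21), 1.91% also occur in transcripts of another gene, and of those of Ccr4 0.465%. How the counting treated reads of these words is not stated. Cxcr3, Cxcr4, Cxcr6, Ccr1, Ccr3 and Ccr8 share no 50-base word with another annotated transcript.

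Cxcr4 rose in Tbx21-KO. The gene (ENSMUSG00000045382, chromosome 1, 128588199 to 128592293, minus strand) encodes the receptor for CXCL12, which holds stem cells, neutrophils and lymphocyte precursors in the bone marrow and is also carried by mature T cells. Its level was 46.6 and 47.3 FPKM in Tbx21-KO and 13 and 13.3 FPKM in WT. The rise was 3.56-fold, with a log2 fold change of 1.76 (SE 0.04, 95% interval 1.65 to 1.86, adjusted p = 2.10e-05). It was 2.19 on the log2 scale under the T cell receptor complex list scaling. Neutrophils and their precursors carry Cxcr4 as T cells do, and the granulocyte sums given above moved with it; their part was not tested.

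The receptors linked to type 2 and regulatory T cells, Ccr4 and Ccr8, were both called higher. Ccr4 (ENSMUSG00000047898, chromosome 9, 114490316 to 114504916, minus strand), the receptor for CCL17 and CCL22, was at 24.6 and 26.7 FPKM in Tbx21-KO and at 3.22 and 3.79 FPKM in WT. The rise was 7.30-fold, with a log2 fold change of 2.56 (SE 0.08, 95% interval 2.35 to 2.78, adjusted p = 5.32e-05). Its ratio to Cxcr3 within a library was 9.73 and 13.7 in Tbx21-KO and 0.095 and 0.122 in WT, so the order of the pair was turned round between the groups. Ccr8 (ENSMUSG00000042262, chromosome 9, 120092114 to 120094906, plus strand) binds CCL1 and, in mice, CCL8. It was far lower, at 2.77 and 1.74 FPKM in Tbx21-KO and at 0.648 and 0.917 FPKM in WT, or an estimated 76 and 49 reads against 19 and 26 reads. The groups do not overlap, but the Tbx21-KO libraries differ from each other by more than the nearest libraries of the 2 groups do. The log2 fold change was 0.85 (SE 0.19, 95% interval 0.36 to 1.34, adjusted p = 0.0171). That call was lost with no filter on low genes (adjusted p = 0.0693) and after quantile normalization (adjusted p = 0.0734), within a range of 0.00291 to 0.0734 over 13 alternatives. Eosinophil, basophil and mast cell markers, 9 of 11 tested called higher and 1 lower against 30.1% and 23% of all genes, moved with both receptors, and their part was not tested. Of these 11, 4 had a mean of at least 1 FPKM in WT, and the others entered the test through Tbx21-KO alone.

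Cxcr6 had the highest FPKM of the 9 receptors in every library. The gene (ENSMUSG00000048521, chromosome 9, 123806475 to 123811760, plus strand) encodes the receptor for CXCL16. It was at 135 and 138 FPKM in Tbx21-KO and at 82.9 and 78.4 FPKM in WT, above 98.8% of the genes of the table in each Tbx21-KO library and above 97.7% and 97.5% of them in WT. It rose 1.70-fold, with a log2 fold change of 0.76 (SE 0.04, 95% interval 0.64 to 0.87, adjusted p = 0.000275). The log2 fold change ran from 0.65 with median-of-ratios scaling to 1.19 with the T cell receptor complex list scaling. Relative to Cxcr6 in the same library, Cxcr3 was at 0.0187 and 0.0141 in Tbx21-KO and at 0.410 and 0.397 in WT, and Cxcr4 at 0.344 and 0.342 in Tbx21-KO and 0.157 and 0.170 in WT. Changes in these ratios do not depend on a scaling that multiplies each library by a common factor. Quantile normalization is not of that kind.

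Ccr3 and Ccr9 were close to the limit of these libraries. Ccr3 (ENSMUSG00000035448, chromosome 9, 124021972 to 124031689, plus strand) encodes the eotaxin receptor of eosinophils. It was at 0.210 and 0.165 FPKM in Tbx21-KO and at 0.0979 and 0.0760 FPKM in WT, an estimated 16 and 13 reads in Tbx21-KO and 8 and 6 reads in WT. The ratio of the summed reads per depth was 2.15, with an exact 95% interval of 1.10 to 4.40 that covers counting error only. Without the filter its adjusted p was 0.0983 on the log2(FPKM + 1) scale, which understates changes of low genes. In the same Tbx21-KO libraries the eosinophil granule genes Prg2 and Epx averaged 199 ± 0.42 and 69.7 ± 5.0 FPKM, against 0.51 ± 0.12 and 0.17 ± 0.10 FPKM in WT (SD, n = 2 each). Ccr9 (ENSMUSG00000029530, chromosome 9, 123678439 to 123784330, plus strand), the CCL25 receptor, was at 0.138 and 0.174 FPKM in Tbx21-KO and at 0.141 and 0.0808 FPKM in WT. These are 33 and 43 reads against 36 and 20 reads, and the groups overlap. The ratio was 1.41 with an interval of 0.983 to 2.02, and the adjusted p without the filter was 0.444. Of the 50-base words of Ccr9, 20.1% also occur in transcripts of another annotated gene, so even these few reads are uncertain.

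Among the 7 tested receptors, Cxcr3 stood lower and Cxcr4 stood above Ccr2 in the Tbx21-KO order, and the order was otherwise that of WT. In Tbx21-KO the order was Cxcr6 (136.9 FPKM), Cxcr4 (46.95), Ccr2 (41.6), Ccr4 (25.6), Ccr1 (20.8), Ccr8 (2.25), Cxcr3 (2.24), Ccr3 (0.187) and Ccr9 (0.156), all as means of 2 libraries. Within it, the libraries of Ccr8 overlapped those of Cxcr3, and the libraries of Ccr3 overlapped those of Ccr9. In WT the order was Cxcr6 (80.6 FPKM), Cxcr3 (32.5), Ccr2 (19.2), Cxcr4 (13.2), Ccr4 (3.51), Ccr1 (1.29), Ccr8 (0.782), Ccr9 (0.111) and Ccr3 (0.0870), where only Ccr9 and Ccr3 overlapped. Cxcr3 therefore stood at rank 7 in Tbx21-KO and at rank 2 in WT. The order between genes rests on the exon length used for each. In the 2 Tbx21-KO libraries together, Ccr2 had an estimated 13316 reads over 6760 bases of exon, and Cxcr4 had 4022 over 1808. Ccr9 had 76 reads over 10260 bases, and Ccr3 had 29 over 3272. Summed over the 8 receptors other than Cxcr3, the level was 271 and 278 FPKM in Tbx21-KO and 121 and 117 FPKM in WT.

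Shares of the summed FPKM of the 23 chemokine receptor genes analysed here describe the make-up of their transcripts without a library scaling. Cxcr3 held 0.762% and 0.573% of that sum in Tbx21-KO and 18.2% and 17.3% in WT. Its share was far smaller in both Tbx21-KO libraries. Ccr4 and Ccr1 held 7.63% and 6.21% on average in Tbx21-KO, against 1.92% and 0.705% in WT. Cxcr4 held 14.1% and 13.9% in Tbx21-KO and 6.97% and 7.43% in WT. Both groups of libraries were thus apart for these receptors, with the higher shares in Tbx21-KO. Cxcr6 held 40.8% in each Tbx21-KO library and 44.4% and 43.6% in WT, although its level was 1.70-fold higher in Tbx21-KO. Ccr2 held 12.3% and 12.4% in Tbx21-KO and 10.6% and 10.4% in WT. Ccr7, the lymph node homing receptor, held 12.1% and 12.3% in Tbx21-KO and 13.8% and 14.1% in WT. Each share adds the receptor RNA of all cells in a library and depends on the exon length used for each gene.

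**Figure D3:**
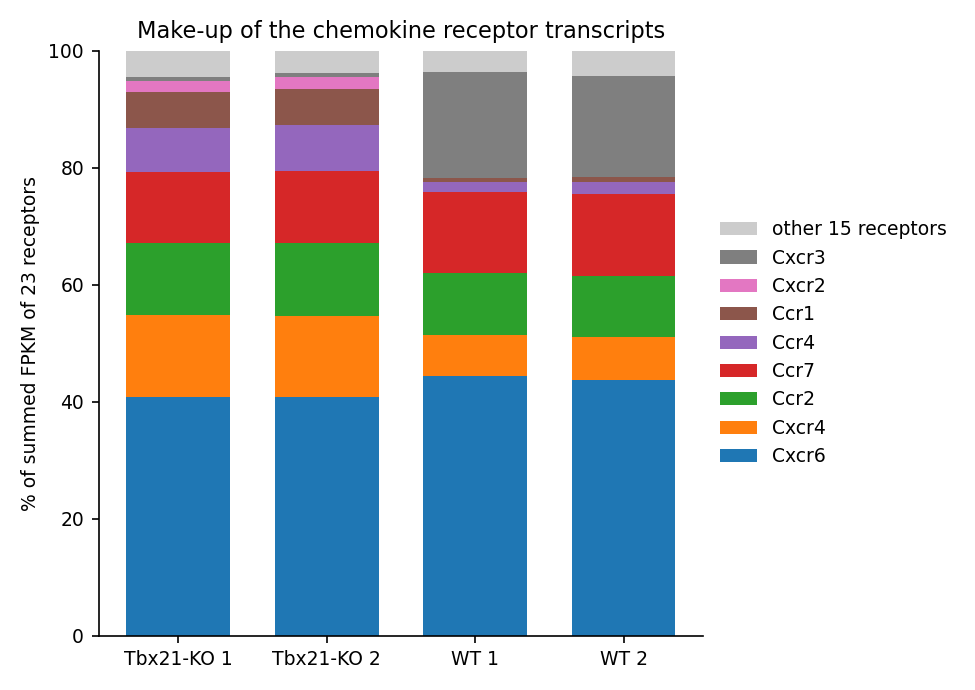
Share of the summed FPKM of 23 chemokine receptor genes (vertical axis, percent) taken by 8 named receptors and by the other 15 together, with 1 bar per library. Cxcr3 holds 0.667% on average in Tbx21-KO and 17.8% in WT, while Cxcr6 holds 40.8% against 44.0%.

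Of the 9 receptors 5 sit close together on chromosome 9, on a stretch of 435 kb from the start of Ccr9 to the end of Ccr2 that holds 7 of the chemokine receptor genes analysed here. In order along the chromosome they are Ccr9, Cxcr6, Xcr1, Ccr1, Ccr1l1, Ccr3 and Ccr2. Cxcr6, Ccr1 and Ccr2 rose, and Ccr9, Ccr1l1 and Ccr3 were under the filter. Xcr1, which marks cross-presenting dendritic cells, was at 1.01 and 0.963 FPKM in Tbx21-KO and at 1.32 and 1.54 FPKM in WT and was not called (adjusted p = 0.0690). Ccr1 and its close relative Ccr1l1 are 8550 bases apart, and Ccr1l1 was at 0.147 and 0.107 FPKM in Tbx21-KO and at 0.103 and 0.213 FPKM in WT. Ccr3, at 0.210 FPKM or less in every library, lies between Ccr1 and Ccr2, both of which rose. Ccr4 and Ccr8 lie on the same chromosome outside this stretch, and Cxcr3 and Cxcr4 on chromosomes X and 1.

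**Figure D4:**
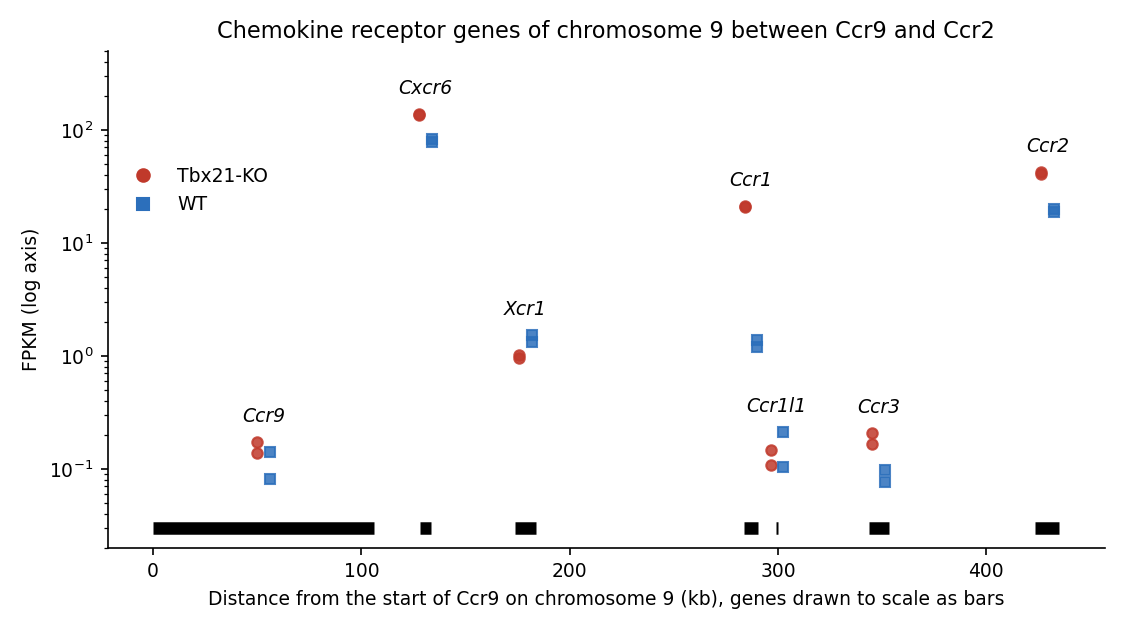
FPKM (log axis) of 7 chemokine receptor genes by distance in kb from the start of Ccr9 on chromosome 9, with 1 point per library (circles Tbx21-KO, squares WT) and the genes to scale as black bars. Ccr1 lies at 20.6 and 21.1 FPKM in Tbx21-KO and 1.20 and 1.38 FPKM in WT, and Ccr3, farther along the stretch, at 0.210 and 0.165 against 0.0979 and 0.0760 FPKM.

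The other chemokine receptors analysed here numbered 14, and 9 of them were under the filter. Of the 5 tested, 3 were higher (Cxcr2, Ccrl2 and Ccr7) and none was lower, with a median log2 fold change of 0.66, against 0.04 over all 11013 genes, of which 30.1% were higher and 23% lower. Cxcr2 was under 1 FPKM in WT and entered the test through Tbx21-KO alone. With a mean of at least 1 FPKM in WT, 2 of 4 were higher and none was lower, against 25.9% and 24.4% of all genes. Cxcr2, the neutrophil receptor for CXCL1 and related chemokines, was at 6.10 and 7.11 FPKM in Tbx21-KO, and in WT it was at 0.0131 FPKM and at 0. That is an estimated 434 and 521 reads against 1 and 0 reads. The ratio of summed reads per depth was 990, with an exact 95% interval of 177 to 39132 for counting error only. Ccrl2, a receptor that presents chemerin and does not signal by itself, was at 6.76 and 6.70 FPKM in Tbx21-KO and at 2.10 and 2.14 FPKM in WT, and it rose by 1.31 on the log2 scale (SE 0.06, adjusted p = 0.000134). Ccr7 rose by 0.66 (SE 0.04, adjusted p = 0.000328), with 40.2 and 41.7 FPKM in Tbx21-KO and 25.8 and 25.2 FPKM in WT. For Cxcr5, the B cell follicle receptor, the log2 difference was -0.15 and for Xcr1 it was -0.29, and neither was called. Under quantile normalization both were called lower, Cxcr5 with -0.49 (adjusted p = 0.00978) and Xcr1 with -0.76 (adjusted p = 0.00419), and Xcr1 was also called lower with median-of-ratios scaling (-0.35, adjusted p = 0.0378).

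**Figure D5:**
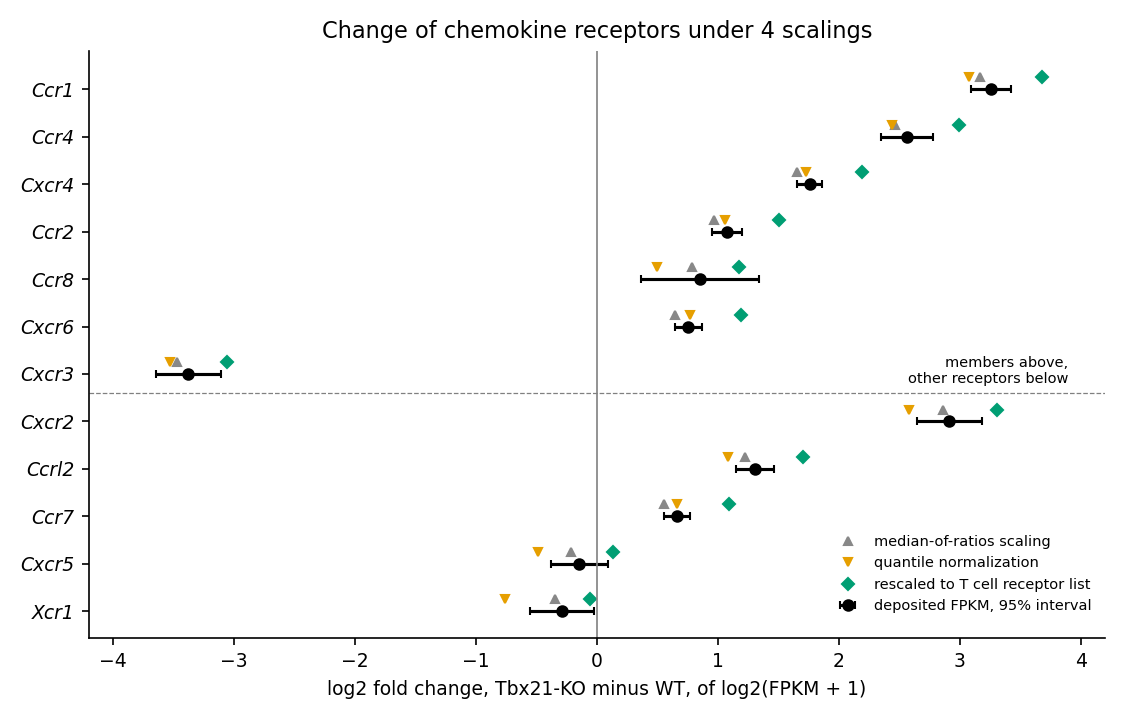
Log2 fold change on the log2(FPKM + 1) scale, positive where Tbx21-KO is above WT, of the 7 tested members and 5 other tested chemokine receptors, with 95% limma intervals (black) and the value under 3 other scalings. Cxcr3 lies at -3.38, on the other side of 0 from Ccr1 at 3.26, and only Cxcr5 crosses 0 between scalings.

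Ligands of the 9 receptors were listed as well, and 19 of 22 had a row and 10 were tested. Of these, 8 were higher, 1 was lower and 1 was not called, with a median log2 fold change of 0.59, against 30.1% higher and 23% lower over all genes. With a mean of at least 1 FPKM in WT, 6 of 8 were higher and 1 was lower, against 25.9% and 24.4% of all genes at that level. Ccl6 and Ccl9, mouse ligands of CCR1 made by myeloid cells, were at 153.5 ± 9.6 and 13.4 ± 0.44 FPKM in Tbx21-KO and at 3.51 ± 1.3 and 0.422 ± 0.08 FPKM in WT (SD, n = 2 each). Ccl24, an eotaxin that binds CCR3, was at 2.48 and 2.96 FPKM in Tbx21-KO and at 0.0928 and 0.0320 FPKM in WT. Ccl6, Ccl9 and Ccl24 had log2 fold changes of 5.13, 3.34 and 1.81. Ccl9 and Ccl24 were under 1 FPKM in WT and entered the test only through Tbx21-KO. Ccl3, a ligand of CCR1, and the related Ccl4 went opposite ways. Ccl3 was at 82.7 and 92.5 FPKM in Tbx21-KO and 29.2 and 32.5 FPKM in WT (log2 fold change 1.48, SE 0.08, adjusted p = 0.000216). Ccl4 was at 17.3 and 17.5 FPKM in Tbx21-KO and 40.4 and 45.9 FPKM in WT (log2 fold change -1.26, SE 0.07, adjusted p = 0.000242). Ligands of CXCR3, CCR4, CXCR6 and CCR8 follow, picked with their values known. The CXCR3 ligand Cxcl10 was at 14.6 and 15.8 FPKM in Tbx21-KO and 12.2 and 12.1 FPKM in WT (log2 fold change 0.30). The CCR4 ligands Ccl22 and Ccl17 had log2 fold changes of 0.60 (adjusted p = 0.00676) and 0.19 (adjusted p = 0.202, not called). Cxcl16, the ligand of CXCR6, was at 2.17 and 2.66 FPKM in Tbx21-KO and 1.49 and 1.59 FPKM in WT (log2 fold change 0.42, adjusted p = 0.0245). Ccl1, the ligand of CCR8, was under the filter at 0.0723 and 0.0527 FPKM in Tbx21-KO and 0.457 and 0.525 FPKM in WT, an estimated 4 and 3 reads against 27 and 30 reads. The ratio of its summed reads was 0.127, with an exact 95% interval of 0.0490 to 0.280 for counting error only.

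Genes that act behind the receptors moved both ways. Of 42 listed signalling genes 38 were tested, and 16 were higher, 10 lower and 12 not called, with a median of 0.06, against 30.1% higher and 23% lower over all genes. With the T cell receptor complex list scaling 31 were higher and 2 lower, against 70.2% higher and 4.97% lower over all genes under that scaling. The changes largest in size were those of Rgs16 and Rgs3, regulators that shut off G protein signals, with log2 fold changes of -1.88 and -1.10, and of the receptor kinase gene Grk3 and the phospholipase genes Plcb2 and Plcb3, with 1.45, 1.39 and 1.20. Rgs16 was at 8.26 and 8.36 FPKM in Tbx21-KO and at 30.7 and 36.3 FPKM in WT (SE 0.09, adjusted p = 0.000133). Rgs16 and Rgs3 were also lower with the T cell receptor complex list scaling, with -1.49 and -0.72. Grk3 was at 2.52 and 2.35 FPKM in Tbx21-KO and at 0.198 and 0.315 FPKM in WT, so it too entered the test through Tbx21-KO. Plcb2, the phospholipase of blood cells that chemokine receptors activate, was at 21.2 and 20.6 FPKM in Tbx21-KO and at 7.79 and 6.93 FPKM in WT.

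Genes most like each tested receptor were sought by the distance between their log2(FPKM + 1) values over the 4 libraries, which reflects level and group difference together. For Cxcr3 the 2 nearest were Ctse (distance 0.77) and Ppp2r2c (1.12), farther than for any other tested receptor. Ctse was at 3.77 and 3.43 FPKM in Tbx21-KO and at 29.0 and 30.2 FPKM in WT. Ccr1 was nearest to Anxa3 (0.18) and Alox5 (0.28), with Anxa3 at 20.3 and 20.1 FPKM in Tbx21-KO and at 1.37 and 1.18 FPKM in WT. Ccr4 was nearest to Napsa (0.31) and to the granulocyte marker Ly6g (0.35), with Ly6g at 21.4 and 22.0 FPKM in Tbx21-KO and 3.36 and 3.43 FPKM in WT. Cxcr4 was nearest to Grn (0.17) and Myl10 (0.21), Ccr2 to Cyth1 (0.09) and Trp53i11 (0.12), Cxcr6 to Hmga1 (0.16) and Prdx5 (0.20), and Ccr8 to Usp35 and Gm20511 (0.21 and 0.22). With 2 libraries per group such a likeness says only that levels are alike.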

How the data were processed

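RNA from 4 libraries of mouse T cells, 2 labelled Tbx21-KO and 2 WT, went through column extraction and mRNA library preparation, per the labels' protocols. The deposited table holds FPKM values per Ensembl gene, computed by the authors. The submitters' processing notes name GRCm38 and mm10. As to the aligner, counting tool and strand setting: not given in the sources used here. Overlapping genes may therefore share reads. Of 24769 rows the last was incomplete and left out. Of 24768 IDs, 24720 matched GENCODE M21, which gave symbols, coordinates and exon lengths.

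Reads were estimated from FPKM, exon length and the total that makes low values whole. Below 20 reads, 96.8% to 97.3% of a library's values were whole within 0.1 read, and 1 read in 2 kb of exon was worth 0.02 to 0.0214 FPKM. The totals need not be the full depth, and intervals cover counting error only. Replicates differed by more than counting noise (median chi-square per gene 1.21 in Tbx21-KO and 1.31 in WT, against 0.455), so each was kept.

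The comparison used limma 3.58.1 in R 4.3.3 on log2(FPKM + 1), with a variance trend, a mean of at least 1 FPKM and Benjamini-Hochberg adjustment over all genes tested, two-sided. Changes of low genes are understated on this scale. With 2 libraries a group, an exact permutation test cannot go below p = 0.333 and was not used. The fit was also run on simulated data in which few or no genes were changed. That run does not cover changes as broad as those seen here.

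The members and lists were chosen with earlier results of these data known. Of 170 listed symbols 14 matched no row and are not analysed here. Named were all members and Tbx21, up to 5 called genes with the greatest change per pathway list, up to 3 called genes per marker list, of which only those beside a result are printed, and the 2 nearest genes per tested member. Genes outside this rule (Cd4, Cd8b1, Ly6c2, Cxcl10, Ccl22, Ccl17, Cxcr5 and Ly6g among them) were named after their values were seen or by another list. Some results are not reported here. Promoter sequences are from RefSeq (GRCm38.p6).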

Additional observations from a re-analysis of the deposited data

How the results depend on the processing

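The direction of each of the 7 tested receptors was the same under every alternative run, and the calls of 6 of them were kept in all 15. Log2 fold changes ran from -3.87 to -2.38 for Cxcr3, 2.04 to 4.02 for Ccr1, 1.85 to 2.99 for Ccr4, 1.52 to 2.19 for Cxcr4, 0.95 to 1.51 for Ccr2 and 0.65 to 1.19 for Cxcr6. Ccr8, with 0.32 to 1.49, lost its call with no filter (0.85) and after quantile normalization (0.50). Of all genes, 2018 were higher at a mean of at least 5 FPKM, 3801 lower after quantile normalization, and 7733 higher and 547 lower with the T cell receptor complex list scaling. Among the other chemokine receptors, 1 was higher at a mean of at least 5 FPKM, and 1 was lower with no variance trend, median-of-ratios scaling and voom, a limma method for counts applied to the estimated reads, and 2 after quantile normalization. With no filter 2 ligands and 6 signalling genes were lower. With the T cell receptor complex list scaling 31 signalling genes were higher and 2 lower, against 70.2% and 4.97% of all genes. Leaving out 1 library gave 6 to 9 lower signalling genes, with 6 when Tbx21-KO replicate 2 was left out. The cause of these changes was not tested, other than the smaller number of genes at a mean of at least 5 FPKM. The test with a mean WT level of at least 1 FPKM was chosen after seeing the data. With a replicate block, 3245 genes were higher and 2482 lower, against 3315 and 2531 without it, and no receptor call changed. Deviations of libraries with the same number had a correlation of -0.02 over 11013 genes, so no common deviation was seen. With 2 libraries per group this cannot decide whether equally numbered libraries were handled together. For the untested Ccr3 and Ccr9 the log2 difference depends on the pseudocount, from 0.03 at 5 to 0.62 at 0.1 for Ccr3. Ccr3 rests on 6 to 16 reads per library and Ccr9 on 20 to 43.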
